A study of Rattus norvegicus with 24 samples.

Results

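Integrins are receptors made of 1 alpha and 1 beta chain that anchor cells to the surrounding matrix, and 10 of their chains were taken by name: the beta chains Itgb1, Itgb4, Itgb6 and Itgb8 and the alpha chains Itgav, Itga1, Itga2, Itga3, Itga6 and Itga8. A gene was read from the transcript cluster, the set of probes summarised for 1 gene, that the platform annotation gives its symbol. Of the 10 chains, 7 had such a cluster, 1 each, among 14324 genes named on the array. Itgav, Itga3 and Itga8 were not analysed here. The samples were renal cortex and medulla of 12 male rats of the Wistar strain, 6 given lithium and 6 controls, on 24 Affymetrix rat gene arrays, 1 array per tissue and animal. The lithium-treated rats ate food with lithium for 6 months, labelled as 40 mmol per kg for 7 days and 60 mmol per kg after that, and had a salt block. The control rats ate a standard rodent diet for the same 6 months. Values are the deposited log2 signal intensities, on which a difference of 1 is a doubling.

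What an integrin of epithelium binds depends on both of its chains. Itgb6 and Itgb8 each pair with Itgav alone, and the resulting receptors bind the latent form of TGF-beta, a cytokine that drives fibrosis, and can release or present the active form. Itgb6 is made by epithelial cells and is known to be induced in injured epithelium. Itgb4 pairs with Itga6 alone in a laminin receptor of hemidesmosomes, the junctions that tie keratin filaments to the basement membrane. Itgb1 is the common beta chain of collagen, laminin and fibronectin receptors, and is the partner of Itga1, Itga2, Itga3, Itga8 and, in cells without Itgb4, of Itga6.

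The promoters of Itgb6 and Itgb1 are shown because the fold changes of these chains had the same sign in cortex and opposite signs in medulla. The sequences are from RefSeq on build GRCr8 and run 5′ to 3′ on the gene's strand, from 250 bases before to 50 bases after the start of the gene. RefSeq promoters were at hand for 8 of the 10 chains, all but Itgb4 and Itga6. Capitals mark matches on either strand to the letters GGGCGG (Sp1), GGAATG (TEAD) and AGGAAG (Ets). The Itgb6 promoter is chr3:65530284-65530583 on the minus strand, and the Itgb1 promoter is chr19:73602027-73602326 on the plus strand.
Itgb6: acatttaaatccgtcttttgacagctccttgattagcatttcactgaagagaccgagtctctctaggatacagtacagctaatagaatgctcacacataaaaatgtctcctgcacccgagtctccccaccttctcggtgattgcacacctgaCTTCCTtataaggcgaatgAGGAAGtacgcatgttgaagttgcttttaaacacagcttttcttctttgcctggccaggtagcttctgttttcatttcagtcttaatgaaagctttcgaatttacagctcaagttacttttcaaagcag
Itgb1: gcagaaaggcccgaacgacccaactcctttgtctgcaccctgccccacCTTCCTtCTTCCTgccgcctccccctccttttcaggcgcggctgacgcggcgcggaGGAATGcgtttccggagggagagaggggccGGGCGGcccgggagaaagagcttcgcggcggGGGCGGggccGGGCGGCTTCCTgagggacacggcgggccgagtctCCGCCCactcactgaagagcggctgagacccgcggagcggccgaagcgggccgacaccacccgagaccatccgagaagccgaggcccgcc
The Itgb6 window held 41.7% G and C with 7 CpG dinucleotides, and 15.7% of the 27457 promoters of the same length had a lower content. The Itgb1 window held 71.7% with 35 CpG, and 93.4% of promoters were lower. Itgb1 had 4 matches to GGGCGG, which 34.9% of all promoters hold at least once, against 0 in Itgb6. Itgb6 had 2 matches and Itgb1 3 matches to AGGAAG, found in 34.3% of promoters, and Itgb1 had 1 match to GGAATG, found in 13.9%. None of the 8 promoters held TATAAA (14.3% of all promoters), the AP-1 letters TGANTCA (7.33%) or the Smad palindrome GTCTAGAC (0.215%). Itga1 and Itga2 lie on the same strand of chromosome 2 with their promoters 191 kb apart.

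The authors had removed scan date from the values. This makes certain sums of residuals over arrays equal to 0, and the groups of arrays scanned together were recovered from those sums. The recovered groups hold animals 1, 6, 13 and 17, animals 15, 16, 18 and 19, and animals 21, 22, 29 and 30, except that animal 17 stood alone in cortex. The cortex array of lithium-treated animal 17 therefore equals the mean of the other 5 lithium cortex arrays (largest difference 8e-05 log2), and SDs of that group are over n = 5. Array medians ran from 5.75 to 5.83 in cortex and from 6.12 to 6.22 in medulla. Proximal tubule markers bore out the tissue labels, with list means of 10.56 to 11.15 in lithium cortex, 10.91 to 11.18 in control cortex, 6.92 to 7.87 in lithium medulla and 7.63 to 8.72 in control medulla. Among the cortex arrays, that of animal 19 of the lithium diet had the highest mean of fibroblast markers (8.94, against 6.85 to 7.47 on the other 4 lithium and 6.72 to 7.54 on the 6 control cortex arrays). In these pieces of whole tissue, fewer cells of a type and less RNA per cell cannot be told apart.

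In the cortex, 1 of 6 tested chains was higher in lithium-treated rats at an adjusted p under 0.05 with scan group in the fit, Itgb6, and none was lower. Among all 13766 clusters tested 79 passed, or 0.574%, 64 higher and 15 lower, and 34 to 42 passed without any one of animals 15, 16, 21, 22, 29 and 30. Before adjustment, at a p under 0.05, there were 3 chains, Itgb1, Itgb4 and Itgb6, all higher in lithium-treated rats, beside 7.54% of all clusters. Without scan group in the fit these 3 passed the adjusted threshold, beside 2.09% of all clusters. Scan date had been removed from the values, and that fit does not count the removal (10 residual degrees of freedom, against 7 with scan group). Its p-values therefore run too low, and it takes the array of animal 17 as a value of its own. The same 3 were the chains whose lithium-treated arrays all lay above every control array, where 2.57% of all clusters had no overlap in either direction. Of these 3, Itgb4 passed the filter on low values only through its lithium arrays, so that its place in these counts supports nothing. The median log2 fold change of the 6 chains was 0.22, beside 0.01 over all clusters. That median includes Itgb4, so that it supports nothing about the chains as a set either.

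In the medulla, none of 7 tested chains passed with scan group in the fit, where 190 of 16025 clusters did, or 1.19% (133 higher and 57 lower, or 101 and 96 with arrays centred on their medians). That count rests on single animals. Without lithium-treated animal 6 it was 1053 (459 higher and 594 lower) and Itgb6 passed, without control animal 29 it was 246, and without any one of the other 10 animals it was 50 to 123. Before adjustment, at a p under 0.05, Itgb4 and Itgb6 were higher and Itgb1 was lower, beside 19.6% of all clusters. Without scan group in the fit Itgb6 alone passed, beside 6.56% of all clusters. No chain had diets that did not overlap, as 3.71% of clusters had. The median log2 fold change of the 7 chains was -0.11, beside -0.01 over all clusters.

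**Figure D1:**
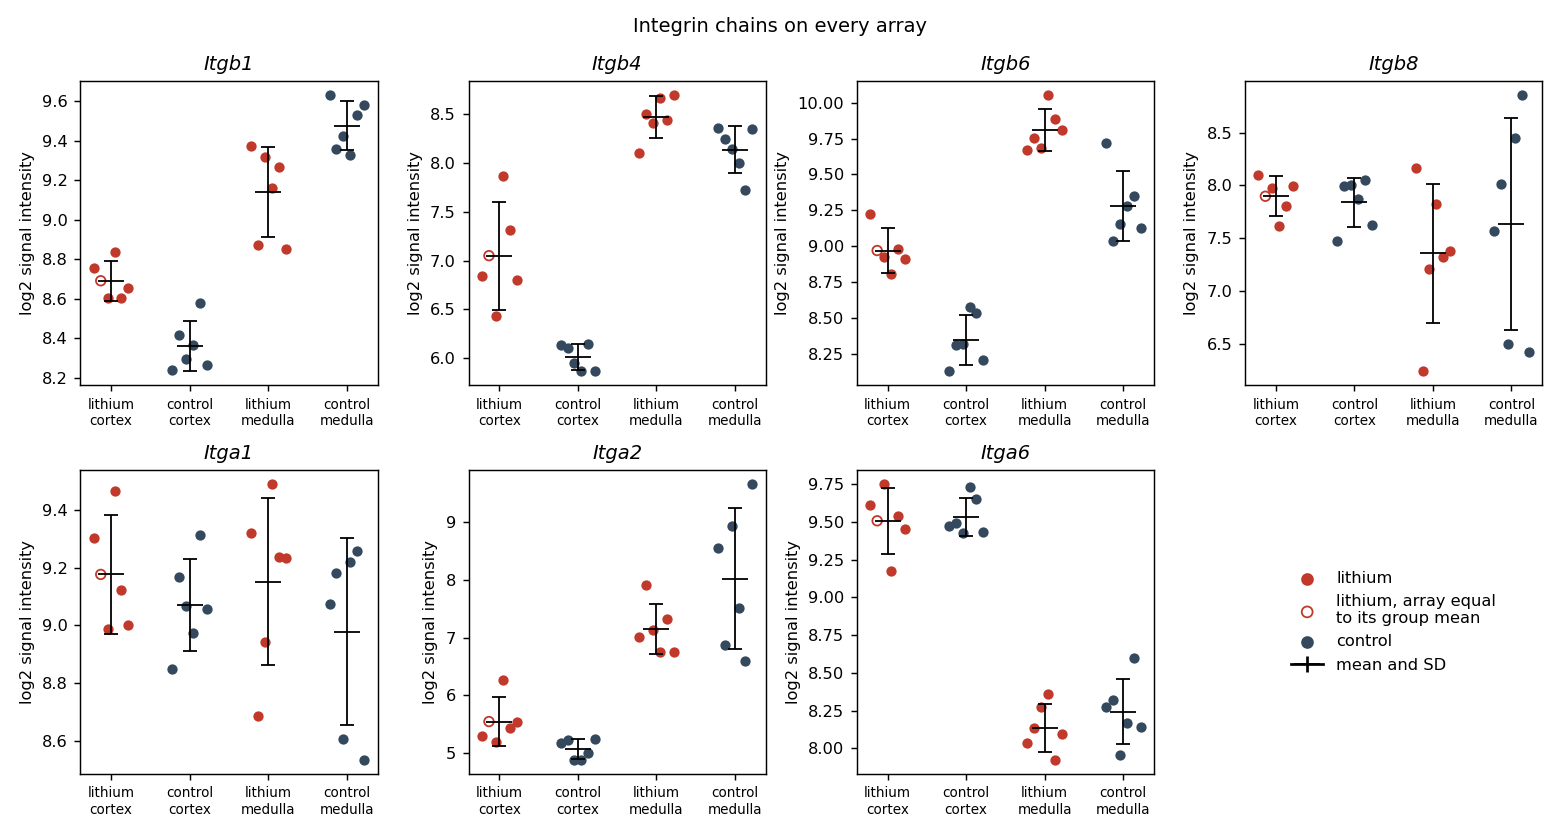
Log2 signal intensity of each of the 7 measured chains (y axes, each with its own range) on every array of lithium cortex, control cortex, lithium medulla and control medulla, with the mean and SD. The open circle is the lithium cortex array of animal 17, which equals its group mean and is not in the SD. The diets are apart in cortex for Itgb1, Itgb4 and Itgb6, and Itga2 and Itgb8 are widely spread in medulla.

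Itgb6 was higher in lithium-treated rats in cortex, and its medulla values lay in the same direction without passing the adjusted threshold. In the cortex it had 8.81, 8.91, 8.93, 8.98 and 9.22 in lithium-treated rats, against 8.13 to 8.58 (median 8.32) in control rats. Each lithium cortex array lay above each control array, with means of 8.97 ± 0.154 (SD, n = 5) and 8.35 ± 0.176 (SD, n = 6). The log2 fold change was 0.62 ± 0.115 (SE), 1.54-fold, with an adjusted p of 0.0389 by limma, just inside the threshold. Leaving out control animals 1 or 16 or lithium-treated animal 19 kept the call. Leaving out any of the other 8 animals with values of their own lost it, with adjusted p up to 0.144, while the log2 fold change ran only from 0.50 to 0.69. The call was also lost with no filter on low values (adjusted p = 0.0669) and with arrays centred on their medians (adjusted p = 0.0626). In cortex the difference within the 3 scan groups with animals of both diets was 1.00, 0.42 and 0.58.

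In the medulla Itgb6 ran from 9.67 to 10.05 (median 9.78) in lithium-treated rats, against 9.04 to 9.72 (median 9.22) in control rats. The overlap came from the array of control animal 1 at 9.72, and the other 5 control arrays lay at 9.35 or lower. This gave a log2 fold change of 0.53 ± 0.127 (SE), with an adjusted p of 0.0697. The adjusted p was 0.0192 without scan group in the fit, 0.0215 without control animal 1 and 0.0388 without lithium-treated animal 6. Within the 3 scan groups the medulla difference was 0.33, 0.65 and 0.61. The medulla effect minus the cortex effect was -0.09 ± 0.175 (SE, adjusted p = 0.850).

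Itgb8, the other chain whose receptor binds latent TGF-beta, did not pass in either tissue. In the cortex it had 7.62, 7.80, 7.97, 7.99 and 8.10 in lithium-treated rats, against 7.48 to 8.05 (median 7.94) in control rats. The diets lay over the same range, with a log2 fold change of 0.06 ± 0.136 (SE, adjusted p = 0.943). In the medulla Itgb8 ran from 6.24 to 8.16 (median 7.35) in lithium-treated rats and from 6.43 to 8.86 (median 7.79) in control rats. The log2 fold change there was -0.28 ± 0.460 (SE, adjusted p = 0.764), so that the spread between animals exceeded the difference between diets.

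Itgb4 had the highest fold change of the chains tested in cortex. It had 6.44, 6.80, 6.84, 7.31 and 7.86 in lithium-treated rats, against 5.87 to 6.15 (median 6.03) in control rats. The diets were apart on every array, and 3 of the 6 control arrays lay under a value of 6, the level used to filter low values. With 3 control arrays at 6 or more, short of the 4 needed, Itgb4 was tested only because its lithium arrays were high. The means were 7.05 ± 0.551 (SD, n = 5) and 6.01 ± 0.131 (SD, n = 6), and the spread was wider in lithium-treated rats. This gave a log2 fold change of 1.04 ± 0.218 (SE), 2.05-fold, with an adjusted p of 0.0775 with scan group in the fit and 0.00731 without it. The highest array was that of animal 19, and without this animal the log2 fold change was 0.80 with an adjusted p of 0.0159. It was 1.21 (adjusted p = 0.0220) without animal 18, the lowest lithium-treated array. Within the 3 scan groups the difference was 0.72, 1.24 and 1.05.

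In the medulla Itgb4 ran from 8.10 to 8.70 (median 8.47) in lithium-treated rats, against 7.73 to 8.36 (median 8.19) in control rats. The ranges overlapped, and the log2 fold change of 0.33 ± 0.141 (SE) had an adjusted p of 0.225. Within scan groups the difference was -0.00222, 0.47 and 0.53, with the value near 0 in the group of animals 1, 6, 13 and 17. The medulla effect minus the cortex effect was -0.71 ± 0.273 (SE, adjusted p = 0.326 by limma).

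Itga6, the partner of Itgb4, did not pass in either tissue. In the cortex it had 9.17, 9.45, 9.54, 9.61 and 9.75 in lithium-treated rats, against 9.43 to 9.73 (median 9.48) in control rats, with a log2 fold change of -0.03 ± 0.117 (SE, adjusted p = 0.968). Animal 19, highest in Itgb4, was lowest in Itga6. In the medulla Itga6 ran from 7.92 to 8.36 (median 8.11) in lithium-treated rats and from 7.95 to 8.60 (median 8.22) in control rats, with a log2 fold change of -0.11 ± 0.123 (SE, adjusted p = 0.655). Whether the effect on Itgb4 differs from that on Itga6 was not tested.

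Itgb1 had fold changes of opposite sign in the 2 tissues, both short of the adjusted threshold with scan group in the fit. In the cortex it had 8.61, 8.61, 8.65, 8.76 and 8.84 in lithium-treated rats, against 8.24 to 8.58 (median 8.33) in control rats. All lithium cortex arrays lay above all control arrays, the nearest pair being 8.61 and 8.58. The log2 fold change was 0.33 ± 0.0947 (SE), 1.26-fold, with an adjusted p of 0.305 by limma, or 0.0253 without scan group in the fit. In the medulla it ran from 8.85 to 9.37 (median 9.21) in lithium-treated rats, against 9.33 to 9.63 (median 9.48) in control rats. Only lithium-treated animal 6 at 9.37 reached into the control range, and animals 17 and 22 were lowest at 8.87 and 8.85. Its log2 fold change there was -0.33 ± 0.120 (SE), with an adjusted p of 0.160 by limma. Itgb1 was among the genes that the study itself listed from these samples, so that its direction here is not independent evidence.

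The medulla effect of Itgb1 minus its cortex effect was -0.66 ± 0.153 (SE), with an adjusted p of 0.128 by limma. None of the 7 chains passed this test, where 15 of 16388 clusters did, or 0.0915%, or 5 clusters with the animal as a replicate block. It was 57 clusters without lithium-treated animal 6 and 5 to 9 without any one of animals 13, 15, 16, 18, 19, 21, 22 and 30. At an unadjusted p under 0.05, Itgb1, Itgb4 and Itga2 had a lower effect in medulla than in cortex, beside 12.2% of all clusters in either direction. Without scan group in the fit Itgb1 passed (adjusted p = 0.00934), beside 2.18% of all clusters. With the animal as a replicate block the Itgb1 difference was -0.60 (adjusted p = 0.275). Animal 17 adds nothing to that fit, which uses the cortex scan groups, and the difference was also -0.60 when animal 17 was left out. Itgb1 kept its direction within every scan group that holds both diets, at 0.43, 0.39 and 0.21 in cortex and -0.37, -0.14 and -0.49 in medulla.

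**Figure D2:**
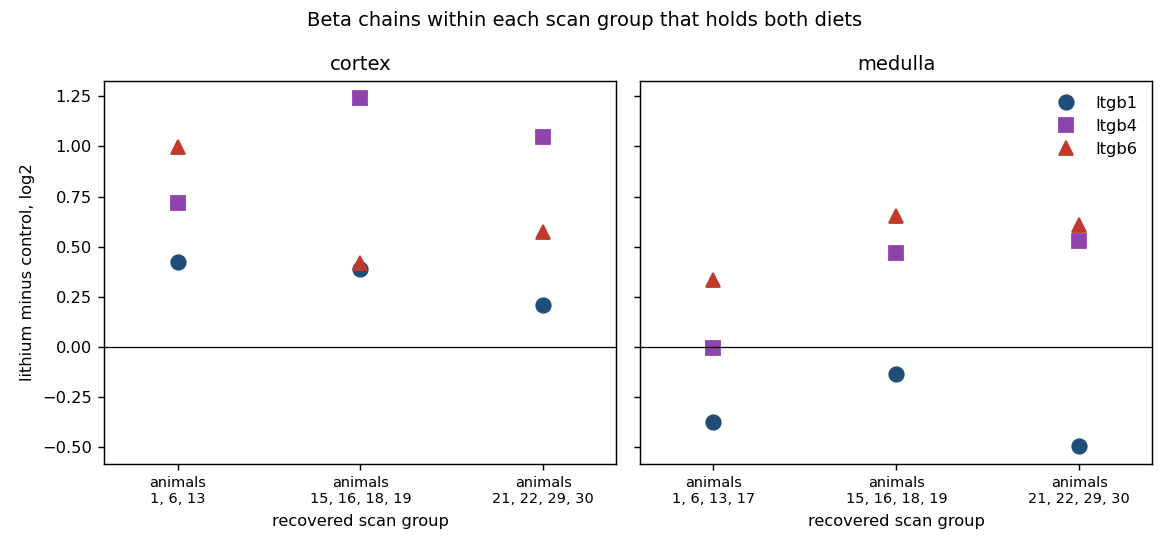
Difference in log2 signal intensity between lithium-treated and control rats (y axis) within each recovered scan group that holds both diets (x axis, named by its animals), in cortex and medulla, for Itgb1, Itgb4 and Itgb6. Each point rests on 2 arrays per diet, or on 1 lithium array in the first cortex group. Itgb6 is above 0 in all 6, and Itgb1 is above 0 in the 3 cortex groups and below 0 in the 3 medulla groups.

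The 2 collagen-binding alpha chains, both partners of Itgb1, differed in their spread. Itga1, a receptor chain for basement membrane collagen, had 8.99, 9.002, 9.12, 9.30 and 9.47 in lithium cortex, against 8.85 to 9.31 (median 9.06) in control cortex. In the medulla it ran from 8.69 to 9.49 (median 9.23) in lithium-treated rats and from 8.53 to 9.26 (median 9.13) in control rats. The diets overlapped in both tissues, with log2 fold changes of 0.11 ± 0.121 (SE, adjusted p = 0.877) in cortex and 0.17 ± 0.178 (SE, adjusted p = 0.615) in medulla.

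Itga2, a receptor chain for fibrillar collagen, lay under the filter in cortex, where 1 of 12 arrays reached 6, and was not tested there. It had 5.19, 5.29, 5.43, 5.54 and 6.27 in lithium cortex, against 4.88 to 5.25 (median 5.09) in control cortex, and the array at 6.27 was that of animal 19. In the medulla it ran from 6.76 to 7.92 (median 7.07) in lithium-treated rats, against 6.60 to 9.67 (median 8.03) in control rats. The control arrays fell apart, with animals 30, 15 and 1 at 9.67, 8.93 and 8.55, and animals 16, 13 and 29 at 7.52, 6.87 and 6.60. The log2 fold change was -0.87 ± 0.497 (SE, adjusted p = 0.352), and it was -0.46 without control animal 30. The medulla effect minus the cortex effect was -1.35 ± 0.593 (SE, adjusted p = 0.380), which includes cortex values under the filter.

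**Figure D3:**
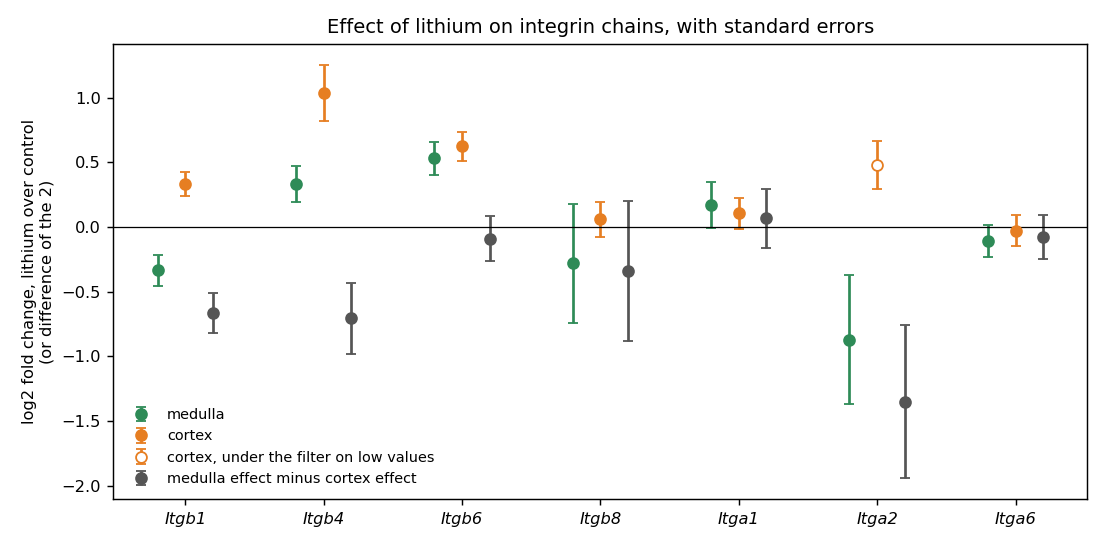
Log2 fold change (lithium over control diet) in medulla and in cortex, and the medulla effect minus the cortex effect (y axis), for each chain (x axis), with bars for the standard error from the fit with scan group. The open point is Itga2 in cortex, under the filter on low values. Itgb6 lies at 0.53 in medulla and 0.62 in cortex, and Itgb1 at -0.33 and 0.33.

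The spread of Itga2 and Itgb8 in medulla went along with markers of tubule segments, though not with these alone. The comparison was chosen after the values were seen. The control animals 1, 30 and 15, with the highest Itga2, also had the highest mean of 6 thin limb and papilla markers, at 10.50, 10.43 and 10.33. The other 3 control arrays had 9.07 to 9.80, and the 6 lithium medulla arrays had 8.92 to 9.53. None of these 6 markers passed the test in medulla. Itgb8 was at 6.24 in lithium-treated animal 17 and at 6.43 and 6.51 in control animals 30 and 15. These arrays had means of 5.49, 6.71 and 7.43 for 6 markers of thick ascending limb and distal convoluted tubule, among the 4 lowest of the 12 with lithium-treated animal 18 at 6.52. The means of this list ran from 5.49 to 8.44 in lithium medulla and from 6.71 to 8.89 in control medulla, and none of its 4 tested genes passed. The part of these markers in the results for Itga2 and Itgb8 was not tested.

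**Figure D4:**
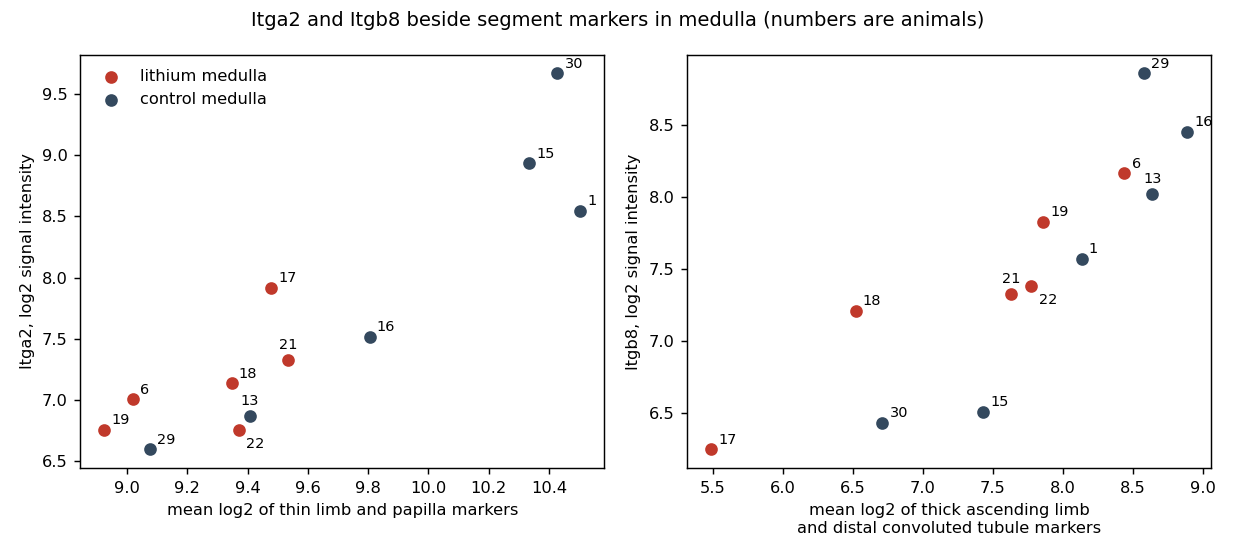
Medulla arrays of lithium-treated and control rats, labelled by animal: Itga2 against the mean of thin limb and papilla markers, and Itgb8 against the mean of thick ascending limb and distal convoluted tubule markers, all in log2 signal intensity. Control animals 1, 15 and 30 lie at the upper right for Itga2, and animals 15, 17 and 30 at the bottom for Itgb8.

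Markers of injured tubule epithelium were higher in the cortex of the same lithium-treated rats in which Itgb1, Itgb4 and Itgb6 lay above control. Of 7 tested, 5 were higher in lithium-treated rats, Krt19, Krt18, Krt8, Lgals3 and Cd44, and the mean of the 8 measured markers ran from 6.85 to 8.13 in lithium cortex, against 5.72 to 6.20 in control cortex. In control cortex 5 of the 8 had a group mean under 6, and in lithium cortex 1. Krt18 and Cd44 reached 6 on 0 control arrays and Krt19 on 2, so that these 3 were tested only because their lithium arrays were high, and the count of 5 supports nothing. Of 6 principal cell markers 4 were lower, Aqp2, Scnn1g, Scnn1b and Hsd11b2, with list means of 7.45 to 8.07 in lithium cortex and 8.25 to 8.97 in control cortex. Of 11 fits with 1 animal left out, the call was lost in 9 for Scnn1b, in 6 for Scnn1g and in 2 for Hsd11b2. Of 5 thin limb and papilla markers tested in cortex 1 was higher, Cldn4, with the call lost in 6 of 11 such fits.

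More marker lists moved in medulla. There 2 of 7 injury markers were higher, Krt19 and Cd44, with list means of 7.86 to 8.57 in lithium-treated rats and 7.17 to 7.64 in control rats, and the call of Cd44 was lost in 6 of 12 fits with 1 animal left out. Intercalated cell markers were apart between diets, with list means of 8.86 to 9.60 in lithium medulla and 6.17 to 8.70 in control medulla. Of the 5 tested all were higher at an unadjusted p under 0.05, with a median log2 fold change of 1.75, and 1 passed, Slc4a9, whose call was lost in 3 of 12 fits. At that p, 5 of 7 proximal tubule markers and 3 of 6 thin limb and papilla markers were lower, and none of them passed. Their median log2 fold changes were -0.68 and -0.59. Of all clusters, 19.6% reached that p in either direction. Endothelial markers had list means of 8.21 to 8.60 in lithium medulla and 8.57 to 9.09 in control medulla, and 1 of 4 was lower, Emcn. Of 5 podocyte markers tested 1 was lower, Podxl, which endothelium also carries, and the only T and B cell marker tested, Cd3e, was higher. All 5 measured T and B cell markers had a control medulla mean under 6, and 4 a lithium medulla mean under 6. Cd3e may thus have been tested only because its lithium arrays were high. The calls of Emcn, Podxl and Cd3e were each lost in 10 of 12 fits with 1 animal left out. The part of the marker lists of either tissue in the results for Itgb1, Itgb4 and Itgb6 was not tested.

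Chains that integrins of white blood cells use were counted among 17 other integrin chains, of which 13 had a cluster and 5 passed the filter in each tissue. Among the 13, Itgad and Itgax were read from the same cluster, which is counted under both names. In the medulla none of these 5 passed the test, and 3 were higher at an unadjusted p under 0.05, Itgb2, Itgal and Itga4, which leukocytes carry, beside the 19.6% of all clusters at that p. Their log2 fold changes were 0.81 ± 0.257, 0.75 ± 0.226 and 0.61 ± 0.232 (SE), with adjusted p from 0.118 to 0.181, and they are named after their values were seen. In control medulla 9 of the 13 chains had a mean under 6, Itga4 among them. Itga4 may thus have been tested only because its lithium arrays were high, which weakens the count of 3. Without scan group in the fit Itgal passed (adjusted p = 0.0492). In the medulla 2 of 7 macrophage and dendritic cell markers were higher, Cd68 and C1qa, with list means of 7.52 to 8.17 in lithium-treated rats and 6.43 to 7.51 in control rats. The calls were lost in 9 of 12 fits with 1 animal left out for Cd68 and in 10 for C1qa, and both with no filter on low values (adjusted p = 0.0521 and 0.0564). In cortex none of 5 other chains passed, and none had an unadjusted p under 0.05. The part of these cells in the leukocyte chains was not tested.

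Among ligands and partners, 1 ligand of integrins passed the threshold in both tissues. Ccn3, a secreted matricellular protein that binds integrins, had 7.16 ± 0.351 (SD, n = 5) in lithium cortex and 4.78 ± 0.302 (SD, n = 6) in control cortex, and 9.91 ± 0.452 in lithium medulla and 5.91 ± 0.256 in control medulla (SD, n = 6 each). Its log2 fold change was 2.37 ± 0.189 (SE, adjusted p = 0.000125) in cortex and 4.0 ± 0.209 (SE, adjusted p = 6.79e-06) in medulla, with a difference of 1.63 ± 0.303 (SE, adjusted p = 0.0462). Both tissue calls of Ccn3 held in all fits with 1 animal left out, and the call of the difference was lost in 10 of 12 such fits and with the animal as a replicate block (adjusted p = 0.198). Both control means lie under 6, where no measure of background was at hand. Ccn3 reached 6 on 0 control arrays in cortex and on 2 in medulla, so that it was tested only because its lithium arrays were high, and the study had itself listed this gene, under an older name, from these samples. Ccn3 was the one gene to pass among 16 tested RGD and matricellular ligands in cortex and 15 in medulla. Of all clusters 0.574% and 1.19% passed, and this count supports nothing, since Ccn3 was tested through its lithium arrays. The median log2 fold changes of these ligands, Ccn3 included, were 0.18 and -0.09. Of 35 tested genes of the talin, kindlin and adhesion complex, Parvg, a parvin of blood cells, was higher in medulla at 7.00 ± 0.186 in lithium-treated rats and 6.35 ± 0.217 in control rats (SD, n = 6 each). Its log2 fold change was 0.65 ± 0.128 (SE, adjusted p = 0.0395), and the call was lost in 9 of 12 fits with 1 animal left out (adjusted p up to 0.112). Parvg was the one gene of that list to pass in medulla, where 1.19% of all clusters did. No gene of that list passed in cortex. No gene passed in either tissue among laminin and basement membrane ligands (7 tested in cortex and 9 in medulla), collagen ligands (8 and 8), or hemidesmosome and tetraspanin partners (10 and 10). The median log2 fold changes of these lists lay between -0.09 and 0.17. Without scan group in the fit, 2 chains of basement membrane collagen passed as lower in medulla, Col4a3 (adjusted p = 0.0216, and 0.0725 with scan group) and Col4a4 (adjusted p = 0.0152, and 0.0531 with scan group), which the study also listed from these samples. That fit also gave 2 ligands in place of 1 in cortex and 5 genes of the adhesion complex in medulla. It passed 2.09% of all clusters in cortex and 6.56% in medulla. The second ligand was Tgfb2, which the study also listed from these samples. Its log2 fold change in cortex was 0.54, with an adjusted p of 0.00441 by limma, and 0.0786 with scan group. The collagen chains and Tgfb2 are named after their values were seen.

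Between tissues, the levels of control rats are given as a description only, since array medians differed between medulla and cortex and the median cluster lay 0.50 higher in medulla. Relative to that median, Itga2 lay 2.45 higher, Itgb4 1.62 higher, Itgb1 0.61 higher and Itgb6 0.43 higher in control medulla than in control cortex. The same measure was -1.79 for Itga6, -0.70 for Itgb8 and -0.59 for Itga1. Itgb4 and its partner Itga6 thus had opposite tissue differences. Itga2 and Itga1 differed in sign too, but before the median was taken off Itga1 lay only 0.09 lower in medulla (-0.09). The Itga2 mean in control cortex was 5.07, under the filter on low values.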

How the data were processed

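RNA of cortex and medulla was measured on Affymetrix rat gene arrays. The deposited values are log2 signal intensities for 28894 transcript clusters. The authors corrected background with RMA, normalized by quantiles and summarised by median polish in Partek, then took out the effect of scan date with an analysis of variance. The build in the submitters' processing notes is rn4. A single symbol was given to 15097 clusters by the platform annotation, several to 323 and none to 13474.

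Clusters that reached 6 on 4 or more of the 12 arrays of a tissue were tested. Within a tissue, lithium was compared with control by limma 3.58.1 in R 4.3.3, with recovered scan group as a term, since the methods name treatment and scan date as factors. The tissue difference was an interaction over 24 arrays. Tests were 2-sided, with Benjamini-Hochberg adjustment over all clusters tested and a threshold of 0.05. The fits were tested on simulated data. The scan dates themselves were not at hand. The number of arrays limits the precision.

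Cortex and medulla pair by animal number in the labels. The deviations of an animal's 2 arrays from their group means correlated from -0.06 to 0.42 over 11 animals, above 0.1 in 6. The members and gene lists were chosen with earlier results of these data known. All members were named, and from each list of chains, ligands and partners up to 4 genes past the threshold with the largest change, with exceptions stated. Marker lists were described by the range of their mean, with markers past the threshold named after their values were seen. The cortex array of animal 17 adds no value, so leaving it out changes no cortex fit and is not counted. Alternatives are given at the end.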

Additional observations from a re-analysis of the deposited data

Results flagged for a closer look

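Itgb1 stood out because every lithium-treated array lay above the control mean in cortex and below it in medulla. Its medulla effect minus its cortex effect was -0.66 ± 0.153 (SE, adjusted p = 0.128 by limma). Itga2 had the same pattern, with a difference of -1.35 ± 0.593 (SE, adjusted p = 0.380 by limma), though its cortex values lie under the filter. No single array stood out as an outlier of its group in the 28 groups of 5 or 6 arrays examined for the 7 chains, where chance gives about 1 in 20.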

How the results depend on the processing

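Without scan group in the fit, 288 clusters passed in cortex, 1052 in medulla and 357 in the tissue difference, with 3, 1 and 1 integrin chains. Neither this fit nor the t-test that follows counts the removal of scan date, so that their p-values run too low. A t-test of each cluster, at the unadjusted p and fold change the study used as thresholds, gave 163 clusters and 2 chains in cortex and 651 clusters in medulla, and after Benjamini-Hochberg 296 clusters with 3 chains and 650 clusters with 1 chain. No chain passed in cortex with no filter or with arrays centred on their medians, and 9 clusters passed in the tissue difference when centred. In the paired fit, with the animal as a replicate block, 5 clusters passed in the tissue difference. That fit uses the cortex scan groups, where animal 17 stood alone, so that this animal adds nothing to it.

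Leaving out 1 animal at a time gave 34 to 92 clusters and 0 to 2 chains in cortex, 50 to 1053 clusters and 0 to 1 chain in medulla, and 5 to 57 clusters with 0 chains in the difference. The 1053 and 57 clusters came without lithium-treated animal 6. The sign of small changes turned. Over animals left out, Itgb8 ran from -0.043 to 0.138 in cortex and from -0.583 to 0.0236 in medulla, and Itga6 from -0.098 to 0.0678 in cortex. In the tissue difference Itgb6 ran from -0.198 to 0.0698, Itga1 from -0.0401 to 0.183 and Itga6 from -0.229 to 0.000389. With quantile normalization repeated in each tissue, the tissue differences of Itgb6 and Itga6 were 0.000582 and 0.00273. The cause of these changes was not tested. Of 127 values of the chains under settings other than leaving out an animal, 119 kept direction and side of the threshold. Other genes called in the lists lost the call in 15 of 133 such values and in 100 of 253 with an animal left out, and turned direction in 0.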
